A study of Mus musculus with 3 samples.

Results

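The nuclear genome encodes most subunits of the 5 oxidative phosphorylation complexes, and their transcripts were followed here in 3 single-cell libraries. Members were chosen by gene symbol alone: names that begin with Nduf and a letter a, b, c, s or v before a digit, the 4 Sdh subunit genes, names that begin with Uqcr or Atp5, and Cox subunit names with a digit from 4 to 8 and a letter from a to c, with pseudogenes left out. The rule took 82 genes, of which 73 were among the 7732 genes abundant enough to compare between cultures. They split into 37 for complex I, 4 for complex II, 8 for complex III, 16 for complex IV and 17 for complex V. They carry 81 symbols, because Atp5o has 2 identifiers. The 13 protein-coding mt- genes, whose products join these subunits in complexes I, III, IV and V, were read beside them.

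The series followed mouse myeloid cells around human skin grafts and asked how vitamin D acts on macrophages in culture. Control macrophages (Co-Mac) were grown from C57/BL6 bone marrow for 7 days with the growth factor GM-CSF and left untreated. The vitamin D3 culture (VD-Mac) was grown the same way and then given 1 µM 1,25-dihydroxycholecalciferol (VD3), the hormonal form of vitamin D, for 24 h. The hSTSG library came from human split-thickness skin grafts placed under the skin of mice and recovered at day 14, with 5 mice pooled. Each group had 1 library with no replicates used, so no test was made, and every interval below is a 95% interval for counting error only. A GM-CSF culture of marrow holds several myeloid types, and the markers showed this. Macrophage-like clusters held 24.0% of kept Co-Mac cells and 12.3% of kept VD-Mac cells, against 36.9% and 37.3% in DC-like clusters, so the cultures are named below by their labels and not as pure macrophages. The gap in macrophage-like cells depends on naming: a cycling cluster of VD-Mac, matched by leading genes to a macrophage-like cluster of Co-Mac, took a granulocyte-like name, and with it the VD-Mac share is 23.6%. That cluster also held more of the granulocyte gene S100a8 than its match, and whether it mixes cell types was not tested.

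After the cell filter, 7257 Co-Mac, 8825 VD-Mac and 2144 hSTSG cells were kept. They held 132574308, 116461484 and 22646544 gene UMIs (unique molecular identifiers, 1 for each captured molecule), and the median cell held 15804, 12089 and 6637.5 UMIs. Co-Mac and VD-Mac shared 15 kept barcodes, Co-Mac and hSTSG 3, and VD-Mac and hSTSG 6. Levels below are UMIs per 1000000 gene UMIs (CPM) summed over kept cells. The assay counts the 3′ ends of molecules, so a level is not divided by gene length. The VD3 response itself was plain in the treated library. Vdr, the vitamin D receptor, stood at 51.1 CPM in Co-Mac and 135 CPM in VD-Mac. Cyp24a1, the enzyme that breaks down active vitamin D, went from 1 UMI in Co-Mac to 36662 UMIs in VD-Mac, with a counting interval of 12.87 to 20.65 for the log2 ratio.

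Oxidative phosphorylation passes electrons from NADH and succinate through complexes I and II to complex III, on to complex IV and oxygen, and uses the proton gradient this builds to make ATP at complex V. Complex II alone is made wholly from nuclear genes, while the other complexes mix nuclear subunits with those made inside the mitochondrion. Macrophages and dendritic cells are known to shift between this route and glycolysis as they are activated.

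Nuclear OXPHOS transcripts made up a slightly larger share of the VD3 culture than of the control. The 82 members together took 2.49% of UMIs in Co-Mac, 2.69% in VD-Mac and 1.52% in hSTSG. The sum was 1.08-fold higher in VD-Mac than in Co-Mac, a log2 ratio of 0.11 with the same value at both ends of its interval. Of the members, 73 reached 10 CPM in the higher culture and were compared gene by gene. The other 9 (Ndufa4l2, Cox6a2, Cox6b2, Cox7a1, Cox7b2, Cox8b, Cox8c, Atp5s and the second identifier of Atp5o) were too low. The median log2 ratio over the 73 was 0.06, beside -0.10 over the 7732 genes tested. Among 1643 genes in the same range of abundance it was -0.13. Members thus stood above the typical gene, which was itself lower in VD-Mac.

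Changes of single members were small. VD-Mac was above Co-Mac for 47 members and below it for 26, where 39% of all genes were higher and 61% lower. The interval lay above 0 for 42 members (32.7% of all genes) and below 0 for 22 (54.1%). The smaller fold used was 25% higher or 20% lower. By it 10 members were higher, against a background of 13.7% of genes, and 4 were lower, against 27%. The upper count is what the background gives, and the lower count falls short of it. No tested member passed 1.5-fold in either direction, where 5.63% of genes were higher and 12% lower, and none passed 2-fold (2.07% and 4.07%). With cells thinned to 2000 UMIs each, 8 members passed the smaller fold, all of them higher. The 4 lower ones also dropped out of that count when cells were averaged with equal weight, when cell classes were given their Co-Mac shares, and when mt- and ribosomal protein UMIs were left out of the total. That last scaling moved the median of all genes from -0.10 to 0.0012 and the median of members from 0.06 to 0.15, so the members stayed above the typical gene.

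Complex I, which takes electrons from NADH, summed to 6908 CPM in Co-Mac, 7408 in VD-Mac and 4543 in hSTSG, a log2 ratio of 0.10 between the cultures. Of its 36 tested members, 24 were higher in VD-Mac and 12 lower. The member with most UMIs over the 2 cultures together was Ndufa13, an accessory subunit also known as Grim19, at 410 CPM in Co-Mac, 454 in VD-Mac and 213 in hSTSG (log2 ratio 0.14), although Ndufb9 stood above it in VD-Mac and Ndufa2 led in hSTSG. The ratio was highest for Ndufv3 (ENSMUSG00000024038, chr17:31520115-31531331 on the plus strand of GRCm38), a small subunit of the NADH-binding arm. Ndufv3 stood at 152 CPM in Co-Mac, 202 in VD-Mac and 135 in hSTSG, a log2 ratio of 0.40 with an interval of 0.38 to 0.43. Its partner in that arm, Ndufv2, which carries an iron-sulfur cluster, had a log2 ratio of 0.32. Of the membrane-arm accessory subunits, Ndufb10 (0.36), Ndufb11 (0.35) and Ndufb9 (0.32) lay close by, while Ndufb3 (0.04), Ndufb4 (-0.04) and Ndufb6 (-0.17) did not. These and Ndufv2 are named here after their values were seen.

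Not all of complex I shared that direction. Ndufb2 (ENSMUSG00000002416, chr6:39592574-39603382), another membrane-arm accessory subunit, stood at 104 CPM in Co-Mac, 78.2 in VD-Mac and 93.2 in hSTSG, a log2 ratio of -0.41 (interval -0.45 to -0.37). Ndufa4 went from 315 CPM to 240 (log2 ratio -0.39) and stood at 254 in hSTSG. Its symbol places it here, although its protein is now known to bind complex IV. Ndufs1, the large iron-sulfur subunit of the NADH arm, was low in every library, at 43.7 CPM in Co-Mac, 34.4 in VD-Mac and 34.0 in hSTSG (log2 ratio -0.34). Subunits of 1 arm therefore differed in direction, Ndufv2 and Ndufv3 being higher in VD-Mac and Ndufs1 lower.

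Complex II, succinate dehydrogenase, was the complex in which each tested member was lower in VD-Mac over summed cells. Its sum was 422 CPM in Co-Mac, 381 in VD-Mac and 271 in hSTSG, a log2 ratio of -0.15 with an interval of -0.16 to -0.13. The catalytic flavoprotein Sdha stood at 108 CPM in Co-Mac, 97.8 in VD-Mac and 74.2 in hSTSG (log2 ratio -0.15). The iron-sulfur subunit Sdhb was at 132, 126 and 63.1 CPM (log2 ratio -0.07). The membrane anchor Sdhc (ENSMUSG00000058076, chr1:171127165-171150603) had the lowest ratio, with 71.0 CPM in Co-Mac, 56.1 in VD-Mac and 66.3 in hSTSG (log2 ratio -0.33, interval -0.39 to -0.29). The other anchor, Sdhd, was at 110, 101 and 67.2 CPM (log2 ratio -0.12). This direction rested on how cells were weighed. The sum came to 0.01 on the log2 scale when each cell counted equally and to -0.0021 when VD-Mac cell classes were given their Co-Mac shares. Sdhb was higher in VD-Mac under both of these, under thinning and without mt- and ribosomal protein UMIs, and Sdhd was higher with cells counted equally.

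Complex III, which hands electrons from ubiquinol to cytochrome c, had the largest relative gain of the 5 sums over summed cells. It stood at 2866 CPM in Co-Mac, 3245 in VD-Mac and 1731 in hSTSG, a log2 ratio of 0.18. With a mitochondrial limit of 5% complex IV led instead, and in DC-like cells complex I did. Much of the complex III gain lay in Uqcrh (ENSMUSG00000063882, chr4:116066965-116075071 on the minus strand), the hinge protein that helps cytochrome c dock. Uqcrh held 798 CPM in Co-Mac, 1100 in VD-Mac and 555 in hSTSG, a log2 ratio of 0.46 with an interval of 0.45 to 0.48, the highest of the 73 members. Uqcrq, a small membrane subunit, followed at 0.20. The core subunit Uqcrc1 pointed the other way, from 104 CPM to 88.9 (log2 ratio -0.22), with 51.6 in hSTSG. Of the 8 members, 6 were higher in VD-Mac and 2 lower, the second being Uqcr10 at -0.08, a value that turns positive when mt- and ribosomal protein UMIs are left out of the total.

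Complex IV, cytochrome c oxidase, summed to 6856 CPM in Co-Mac, 7662 in VD-Mac and 3978 in hSTSG, a log2 ratio of 0.16, and 7 of its 10 tested members were higher in VD-Mac. Cox8a, a small membrane subunit, held the most UMIs of the complex IV members in the cultures. It stood at 1586 CPM in Co-Mac, 2006 in VD-Mac and 572 in hSTSG (log2 ratio 0.34, interval 0.33 to 0.35). In hSTSG Cox7c led among the genes that the name rule takes. Cox5b, which binds zinc, went from 534 CPM to 685 (log2 ratio 0.36), with 254 in hSTSG. The highest ratio belonged to Cox7a2l (ENSMUSG00000024248, chr17:83501918-83517330), an isoform linked to supercomplexes of complexes III and IV, a role not tested here. It stood at 489 CPM in Co-Mac, 649 in VD-Mac and 230 in hSTSG, a log2 ratio of 0.41. Its paralog Cox7a2, the common form, was lower in VD-Mac, at 564, 498 and 337 CPM (log2 ratio -0.18). Cox7b, at 459, 405 and 244 CPM, had the lowest ratio at -0.18. Cox6a1 was at 267, 247 and 368 CPM (log2 ratio -0.11), a direction that turned when cells were counted equally or classes were given their Co-Mac shares. Its level was highest in the graft.

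Complex V, the ATP synthase, changed least in sum in CPM over summed cells, from 7897 CPM in Co-Mac to 8217 in VD-Mac (log2 ratio 0.06), with 4685 in hSTSG. Complex II changed less with size factors, without mt- and ribosomal protein UMIs, with equal cells, with thinning and with reweighted classes. The catalytic head subunits stood lower in VD-Mac: Atp5a1, the alpha subunit, went from 419 to 344 CPM (log2 ratio -0.28), with 291 in hSTSG, and Atp5b, the beta subunit, from 531 to 443 (log2 ratio -0.26), with 282 in hSTSG. The central stalk subunit Atp5d, delta, was higher in VD-Mac, at 419 CPM in Co-Mac, 499 in VD-Mac and 220 in hSTSG (log2 ratio 0.25). So was Atp5h, subunit d of the peripheral stalk, at 612, 770 and 389 CPM (log2 ratio 0.33). Of the other stalk subunits, Atp5c1 was at 0.13 and Atp5o at 0.10, while Atp5f1 and Atp5j, each at 0.01, had intervals across 0. These members of the head and the stalks are named after their values were seen. Atp5e, the epsilon subunit, had the most UMIs of complex V over the 2 cultures together, though not in VD-Mac, where Atp5g2 led, and changed little, at 859, 894 and 721 CPM (log2 ratio 0.06). Atp5g2 (0.42) and Atp5g1 (-0.29), which encode the same ring protein, marked the ends of the complex and are taken up below.

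**Figure D1:**
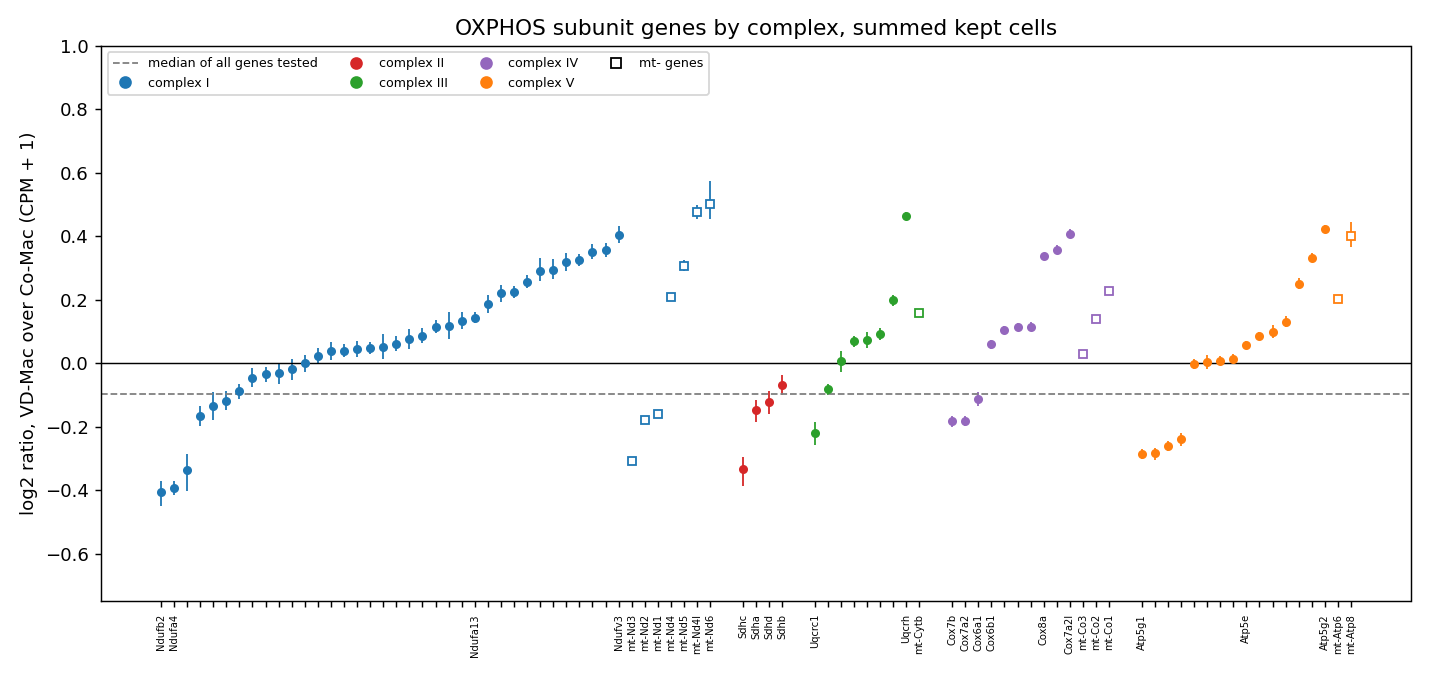
Log2 ratio of VD-Mac over Co-Mac for the 73 tested members (filled points) and the 13 mt- genes (open squares), in order within each complex and labelled for genes named by rule, with 95% counting intervals and a dashed line at the median of all genes tested (-0.10). Complexes I, III, IV and V spread to both sides of 0, the 4 points of complex II lie below it in this scaling, and Uqcrh at 0.46 is the highest nuclear point.

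The mt- genes, transcribed inside the mitochondrion, made up 5.66% of UMIs in Co-Mac, 6.23% in VD-Mac and 3.54% in hSTSG. Their sum had a log2 ratio of 0.14 between the cultures and their median was 0.20, with 10 higher in VD-Mac and 3 lower. By complex, the mt- ratio was 0.02 for complex I, 0.16 for complex III, 0.14 for complex IV and 0.21 for complex V. The cell filter acts on these genes directly. A limit of 5% kept 3125 of the 7257 Co-Mac cells and 3619 of the 8825 VD-Mac cells. Of those, 743 and 1452 had under 1% mt- UMIs. With a mitochondrial limit of 5% in place of 10%, the mt- sum turned to -0.19, and with each cell counted equally it came to -0.011, so the mt- direction depends on these choices while the nuclear sum stayed positive at 0.13 and 0.18.

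Within the mt- genes, complex I was split. The transcripts mt-Nd1, mt-Nd2 and mt-Nd3 were lower in VD-Mac, with log2 ratios of -0.16, -0.18 and -0.31, although mt-Nd1 turned positive when classes were given their Co-Mac shares. In contrast mt-Nd4, mt-Nd4l, mt-Nd5 and mt-Nd6 were higher, at 0.21, 0.48, 0.31 and 0.50. The light-strand gene mt-Nd6 was scarce, at 31.4 CPM in Co-Mac, 44.8 in VD-Mac and 41.1 in hSTSG. The cytochrome b gene mt-Cytb stood at 4157, 4639 and 2290 CPM (log2 ratio 0.16). Of the oxidase core, mt-Co1 was at 11492, 13458 and 9461 CPM (log2 ratio 0.23), mt-Co2 had a log2 ratio of 0.14, and mt-Co3 was nearly level at 0.03. For complex V, mt-Atp6 was at 12113, 13950 and 5161 CPM (log2 ratio 0.20) and mt-Atp8 at 74.0, 98.0 and 123 CPM (log2 ratio 0.40). Under the 5% limit mt-Nd4, mt-Nd5, mt-Cytb, mt-Co1, mt-Co2, mt-Co3, mt-Atp6 and mt-Atp8 lay below 0, mt-Atp8 to -0.02, while mt-Co2 and mt-Co3 also did so with cells counted equally and mt-Co3 with thinned cells.

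Set against each other over summed cells, the genomes kept nearly the same balance in both cultures, but this does not hold with the 5% limit or with equal cells, where the mt- sums above were below 0 and the nuclear sums above it. There were 1.26 mt- UMIs for each nuclear UMI of complex I in Co-Mac and 1.19 in VD-Mac. The value was 1.45 and 1.43 for complex III, and 4.61 and 4.55 for complex IV. Complex V alone moved toward the mt- side, from 1.54 to 1.71, and this too turned with equal cells (mt- 0.064, nuclear 0.13 on the log2 scale) and with the 5% limit, where its mt- sum was -0.12. In hSTSG the values were 1.51, 1.32, 5.28 and 1.13, so the graft sat highest for complexes I and IV and lowest for III and V.

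Gene groups around the complexes did not share one direction. Of 10 tested OXPHOS genes that the name rule misses, 5 were higher and 5 lower in VD-Mac (median -0.11). They included Cox4i1, the common form of subunit 4 of complex IV, at 1073 CPM in Co-Mac, 1365 in VD-Mac and 799.9 in hSTSG (log2 ratio 0.35), and Cycs, cytochrome c, at 181, 132 and 140 CPM (log2 ratio -0.45). Assembly factors had a median of 0.07, with 20 higher and 16 lower. They ranged from Surf1, needed to build complex IV (26.7, 39.5 and 13.7 CPM, log2 ratio 0.55), to Tmem70, needed for complex V (47.8, 34.1 and 16.2 CPM, log2 ratio -0.48). The copper chaperone Cox17, the most abundant of them, was at 145, 179 and 237 CPM (log2 ratio 0.30). Genes that build the complexes thus moved both ways, as the subunits did.

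Routes that feed the chain were mostly lower over summed cells, where 61% of all genes were lower. Of 19 tested genes of the TCA cycle and pyruvate dehydrogenase, 16 were lower in VD-Mac (median -0.17), with Idh3a, a subunit of isocitrate dehydrogenase, going from 62.3 to 38.8 CPM (log2 ratio -0.67) and the malate dehydrogenase of the cytosol, Mdh1, from 117 to 162 (0.47). Its mitochondrial counterpart Mdh2 stood at 212 and 198 CPM (-0.10), a sign that turned with cells counted equally. In DC-like cells 12 of 17 of these genes were higher (median 0.05), beside 58.2% of all genes (median 0.06). In macrophage-like cells 13 of 19 were lower, where 63.3% of all genes were, and in granulocyte-like cells 16 of 19, where 55.5% were. Of 17 glycolysis genes, 14 were lower over summed cells (median -0.35). In DC-like cells 9 of 13 were lower (median -0.29), where 41.8% of all genes were, and in granulocyte-like cells 10 of 17 (median -0.10), where 55.5% were. In macrophage-like cells 9 were higher and 8 lower (median 0.02), beside 36.7% of all genes higher (median -0.16). The clusters of each class differ between the cultures. The platelet-type phosphofructokinase Pfkp dropped from 162 to 43.7 CPM (log2 ratio -1.87), the liver type Pfkl went from 29.2 to 39.8 (0.43), and Gapdh stood at 1746 and 1684 (-0.05). Gapdh turned positive with size factors, without mt- and ribosomal protein UMIs, with cells counted equally and with reweighted classes. The values in hSTSG were 19.0 CPM for Idh3a, 74.3 for Mdh1, 106 for Mdh2, 107 for Pfkp, 32.9 for Pfkl and 993 for Gapdh.

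Genes that run and supply the mitochondrial genome were not far from the all-gene share of 61% lower. Of 14 tested regulators of mitochondrial transcription, 10 were lower (median -0.26). The coactivator relative Pprc1 went from 14.4 to 7.18 CPM (log2 ratio -0.91) and the transcription factor Tfb2m from 18.2 to 22.6 (0.29). The RNA-binding protein Slirp stood at 92.0 and 96.8 (0.07), with the sign turned under thinning. Of 22 import genes, 14 were lower (median -0.17), from Timm8a1 at 82.2 and 45.1 CPM (-0.85) to the outer-membrane subunit Tomm7 at 315 and 386 (0.29). Mitochondrial ribosome genes had a median of -0.07, with 48 of 76 lower. Among them Mrpl20 had the most UMIs (log2 ratio -0.25), Mrps6 the highest ratio (0.98) and Mrps28 the lowest (-1.05). By class the direction differed. In DC-like cells 17 of 20 import genes and 62 of 73 mitochondrial ribosome genes were higher, where 58.2% of all genes were, and in granulocyte-like cells, a class whose clusters differ between the cultures, 19 of 22 and 68 of 76 were lower, where 55.5% of all genes were.

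Cytosolic ribosomal protein genes were mostly higher in VD-Mac. They took 20.5% of UMIs in Co-Mac, 24.6% in VD-Mac and 13.5% in hSTSG, with 72 of 90 higher and a median of 0.28. Rpsa, the most abundant, had a log2 ratio of 0.28 and Rps7 the highest at 0.46. The name rule for that list also takes S6 kinases, of which Rps6ka4 had the lowest ratio (-0.92), and without them the median was 0.28 over 84 genes. Each of 12 cell cycle genes was lower in VD-Mac over summed cells (median -0.39), where 61% of all genes were. Among them were Rrm2 (-0.84), Stmn1 (-0.32) and Ube2c (-0.05). By class the direction differed. In granulocyte-like cells 8 of 12 were higher (median 0.23), and in macrophage-like cells each of 12 was lower (median -2.67). The macrophage-like class holds cycling cluster 3 in Co-Mac, but the VD-Mac match of that cluster, cluster 5, was named granulocyte-like. Between these matched clusters the sum of the 12 genes went from 2555 to 3275 CPM. Between the non-cycling macrophage-like clusters, Co-Mac 2 and VD-Mac 3, it went from 213 to 290. Co-Mac 0 and VD-Mac 1 went from 87.0 to 72.2, and Co-Mac 1 and VD-Mac 0 from 83.7 to 74.0. Co-Mac 11 and VD-Mac 8 went from 456 to 194. In the other matched clusters the sum was higher in VD-Mac. Stmn1 turned to 0.16 with cells counted equally, and Ube2c was higher under 4 of the alternatives: size factors, no mt- and ribosomal protein UMIs, equal cells and thinning. The part of ribosomal content and cycling in the OXPHOS ratios was not tested.

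Cells were then compared by class, although none of the classes holds only matched clusters. The DC-like class joined Co-Mac clusters 0, 1, 9 and 11 with VD-Mac clusters 0 and 1. Of these, Co-Mac cluster 9 had no match, and Co-Mac cluster 11 matched VD-Mac cluster 8, which was left unnamed. VD-Mac cluster 5, a cycling cluster with 565 CPM of the macrophage gene C1qa, supplied 83.6% of the UMIs of the granulocyte-like class there, while its Co-Mac match, cluster 3, supplied 56.4% of those of the macrophage-like class. VD-Mac cluster 5 also held 9223 CPM of the granulocyte gene S100a8 and 169 of Prtn3, against 781 and 7.96 in Co-Mac cluster 3. The cycling granulocyte-like cluster 4 of Co-Mac, with 15181 CPM of S100a8 and 679 of Prtn3, had no VD-Mac match. In DC-like cells members took 2.12% of UMIs in Co-Mac and 2.30% in VD-Mac. In macrophage-like cells the share was 2.70% and 3.08%, and in granulocyte-like cells 2.68% and 2.98%. Macrophage-like cells were thus above DC-like cells in both cultures. VD-Mac was above Co-Mac in each of the 3 classes, but in the matched granulocyte-like clusters it was below, at 2.77% and 2.71% in 1 pair and 2.21% and 2.02% in the other. By gene, the macrophage-like class stood furthest from its background. Its members had a median of 0.12 where all genes had -0.16, and 57 of 74 were higher, against 36.7% of all genes. All genes were more often lower there (63.3%). By the smaller fold 20 members were higher (16.6% of genes) and 0 lower (35.4%). With a mitochondrial limit of 5% that median came to 0.0026, beside -0.20 for all genes. In DC-like cells the medians were 0.10 and 0.06, with 59 of 73 higher (58.2% of genes), 3 past the smaller fold upward (18.3%) and 0 downward (14.5%). In granulocyte-like cells they were 0.09 and -0.05, with 52 of 73 higher (44.5%), 12 past it upward (17.8%) and 3 downward (24%).

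The members that led the summed comparison differed between classes. Cox7a2l went from 283 to 496 CPM in macrophage-like cells (log2 ratio 0.81, interval 0.77 to 0.85) and from 241 to 366 in granulocyte-like cells (0.60). In DC-like cells it was already high in Co-Mac, at 867 CPM, and stood at 881 in VD-Mac (0.02). Uqcrh followed the same order, with 580 and 925 CPM in macrophage-like cells (0.67), 485 and 745 in granulocyte-like cells (0.62), and 1222 and 1365 in DC-like cells (0.16). Ndufv3 had log2 ratios of 0.57, 0.50 and 0.26 in these classes. Cox8a was more even, at 0.37, 0.43 and 0.31. The classes hold different clusters in each culture, so these ratios also carry their make-up. In the granulocyte-like class the macrophage gene C1qa stood at 10.2 CPM in Co-Mac and 474 in VD-Mac. Between macrophage-like and DC-like cells, 10 members had intervals on opposite sides of 0, where 16.7% of genes tested in both had, so members were not set apart in this. Whether classes differed was not tested.

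Ndufa4 differed widely in level between classes. It stood at 80.1 CPM in DC-like cells of Co-Mac, 384 in macrophage-like cells and 645 in granulocyte-like cells. In VD-Mac the values were 72.7, 335 and 467 CPM, with log2 ratios of -0.14, -0.20 and -0.47, but the classes hold different clusters in each culture. In the matched cluster pairs its ratio ran from -0.13 to 0.85, with the interval above 0 in 5 pairs and below 0 in 1, so its lower class values did not hold across the pairs. Matched clusters can differ in make-up too, as S100a8 in Co-Mac cluster 3 and VD-Mac cluster 5 shows. Ndufb2 was likewise lower in each class, at -0.17, -0.20 and -0.29. Atp5a1 was lower in each as well, at -0.19, -0.13 and -0.12, and so was Atp5b, at -0.13, -0.14 and -0.20. In the matched pairs Ndufb2 was lower in all 10 and Atp5b in 9, but Atp5a1 was lower in 7 and higher in 3, with the interval above 0 in 2. Complex II did not keep its summed direction, with log2 ratios of 0.09 in DC-like, -0.06 in macrophage-like and 0.11 in granulocyte-like cells.

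The classes were not alike inside. The macrophage-like class joined Co-Mac clusters 2 and 3, of which cluster 3 was cycling, with VD-Mac cluster 3 alone. Its cell cycle genes summed to 1533 CPM in Co-Mac and 290 in VD-Mac, and its ribosomal protein share was 15.5% and 21.8%. Clusters of the 2 cultures were therefore also paired, each with its reciprocal best match among 50 leading genes, a rule set after the clusters were seen. The 10 pairs held 80.8% of kept Co-Mac cells and 99.0% of kept VD-Mac cells. The member sum was higher in VD-Mac in 8 pairs and lower in 2, and the member median was above the median of all genes in each of the 10. For the non-cycling macrophage-like pair, Co-Mac cluster 2 and VD-Mac cluster 3, the share went from 2.77% to 3.08% (log2 ratio 0.16) and the medians were 0.14 for members and -0.04 for all genes. For the cycling pair, Co-Mac cluster 3 and VD-Mac cluster 5, the share went from 2.65% to 3.05% (0.20). The pairs that were lower were both granulocyte-like, Co-Mac cluster 5 with VD-Mac cluster 4 (-0.03) and Co-Mac cluster 8 with VD-Mac cluster 9 (-0.13), the latter with 72 VD-Mac cells.

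Read against all genes, the pairs differed. The shares of all genes take every gene that reached 10 CPM and were not matched to the members in abundance. Counting error weighs more on scarcer genes and in smaller clusters, such as Co-Mac cluster 12 with 405574 UMIs. The part of abundance in counts that fall short of the background was not tested. In the DC-like pair of Co-Mac cluster 0 and VD-Mac cluster 1, 55 of 73 members were higher (63.1% of genes), 6 past the smaller fold (23.2%) and 0 lower past it (13.2%). In the DC-like pair of clusters 1 and 0, 53 of 74 were higher where 54.7% of genes were higher and 45.3% lower, with 3 past the fold (18%) and 2 lower (15.8%). These DC-like counts past the fold fall short of the background. The macrophage-like pair of clusters 2 and 3 had 54 of 74 higher (45.9%), 17 past the fold (21.1%) and 2 lower (26.9%). The cycling pair of clusters 3 and 5 had 59 of 74 higher (39.3%), 20 past the fold (15.5%) and 0 lower (29%). In the granulocyte-like pair of clusters 5 and 4, 30 of 73 were higher (45.3%), 1 past the fold (16.5%) and 0 lower (20.9%). In that of clusters 8 and 9, 23 of 73 were higher where 29.5% of genes were higher and 70.5% lower, with 4 past the fold (16.3%) and 29 lower past it (50.8%).

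In the remaining pairs more members were higher than lower. In 3 of the 4 the count past the fold upward fell short of the background, which was not matched in abundance. Clusters 6 and 2 had 44 of 74 members higher (47.8% of genes), 13 past the fold (26%) and 2 lower (25.6%). Clusters 10 and 6 had 56 of 73 higher (52.6%), 24 past the fold (30.6%) and 1 lower (26%). In clusters 11 and 8, the first of them DC-like, 49 of 73 were higher (51.9%), 17 past the fold (29.9%) and 6 lower (26.7%). Clusters 12 and 7 had 52 of 73 higher (56.4%), 15 past the fold (35.1%) and 0 lower (25.2%).

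Across the 10 pairs, 8 members were higher in VD-Mac each time, against 3.6% of 4217 genes tested in all of them: Uqcrh, Cox5a, Cox8a, Atp5d, Atp5h, Ndufb10, Ndufv2 and Ndufa3. For Uqcrh the interval lay above 0 in all 10, with log2 ratios from 0.11 to 1.20. Lower in every pair were 2 members, against 3.84% of those genes: Ndufb2 (-0.56 to -0.03) and Cox7b, a small subunit of complex IV (-0.42 to -0.05). Ndufa4, the complex IV partner with a low summed ratio, was higher in 6 pairs and lower in 4, and Cox7a2l was higher in 7 and lower in 3. Sdhc was higher in 5 and lower in 5. The pairs differ in size and depth, and they are not replicates. The 4217 genes were not matched to the members in abundance.

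A group of cells stood apart by its low mitochondrial content. In Co-Mac, cluster 6 (561 cells) had 0.291% mt- UMIs and 3.94% member UMIs, the highest nuclear share of any Co-Mac cluster. In VD-Mac, cluster 2 (1449 cells) had 0.658% and 4.26%, likewise the highest there. Smaller clusters, Co-Mac 12 (73 cells) and VD-Mac 7 (167 cells), had 0.519% and 0.363% mt- UMIs with 2.84% and 3.09% member UMIs. The nuclear RNA Malat1 was at 148 CPM in Co-Mac cluster 6, 291 in VD-Mac cluster 2 and 175 in VD-Mac cluster 7, against 4454 CPM or more in every other cluster of the cultures except Co-Mac cluster 12 at 1699. Cells under 1% mt- UMIs made up 10.2% of kept Co-Mac cells, 16.5% of VD-Mac and 22.8% of hSTSG. Leaving them out, a choice made after seeing the data, gave a member median of 0.04 and an mt- sum of 0.16. What these barcodes are was not tested.

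**Figure D2:**
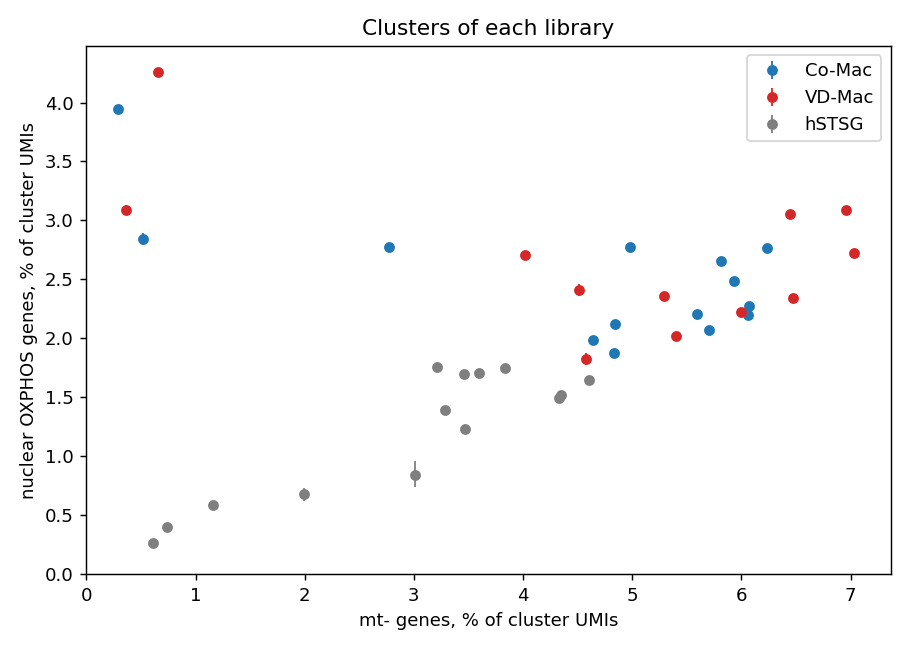
Each point is 1 cluster of 1 library, placed by its mt- share (horizontal) and its nuclear OXPHOS share (vertical), both in percent of UMIs, with 95% counting intervals on the vertical axis. The culture clusters under 1% mt- UMIs include the highest nuclear shares, 3.94% in Co-Mac and 4.26% in VD-Mac, while the graft clusters with the least mt- UMIs have the lowest.

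The difference between the cultures was present at each depth. In cells of 10000 to 20000 UMIs, members took 2.32% of UMIs in Co-Mac and 2.57% in VD-Mac. VD-Mac was above Co-Mac in each of the 5 depth bins, from 3.07% and 3.49% in the shallowest (300 to 5000 UMIs) to 2.58% and 2.88% in the deepest (40000 to 100000).

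The c-subunit of complex V forms the ring that turns with the proton flow, and the genes Atp5g1 (chr11:96068852-96075670), Atp5g2 (chr15:102662864-102672352) and Atp5g3 (chr2:73908447-73911326) encode the same mature protein behind different import peptides. Atp5g1 stood at 537 CPM in Co-Mac, 441 in VD-Mac and 167 in hSTSG (log2 ratio -0.29). Atp5g2 was at 712, 955 and 306 CPM (log2 ratio 0.42), and Atp5g3 at 381, 322 and 274 CPM (log2 ratio -0.24). Their sum barely moved, from 1630 CPM to 1718 (log2 ratio 0.08, interval 0.07 to 0.09), but its make-up did. Atp5g2 supplied 43.7% of c-subunit UMIs in Co-Mac and 55.6% in VD-Mac, while Atp5g1 went from 33.0% to 25.6% and Atp5g3 from 23.4% to 18.8%. Class make-up enters these summed shares, since DC-like cells, rich in Atp5g2, held 31.3% of Co-Mac UMIs and 42.3% of VD-Mac UMIs.

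The mix also differed by cell class. In DC-like cells Atp5g2 already supplied 71.8% in Co-Mac and 74.5% in VD-Mac. In macrophage-like cells its share was 30.7% and 40.3%, and in granulocyte-like cells 32.9% and 40.9%. Atp5g1 led in both of these classes in Co-Mac, at 39.5% and 42.0%, and Atp5g2 led in VD-Mac, where Atp5g1 was at 34.2% and 33.7%. The classes hold different clusters in each culture, so the shift in them also carries their make-up. In hSTSG the shares were 22.4% from Atp5g1, 41.0% from Atp5g2 and 36.7% from Atp5g3, and the macrophage-like cells of the graft held 21.6%, 41.6% and 36.8%.

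**Figure D3:**
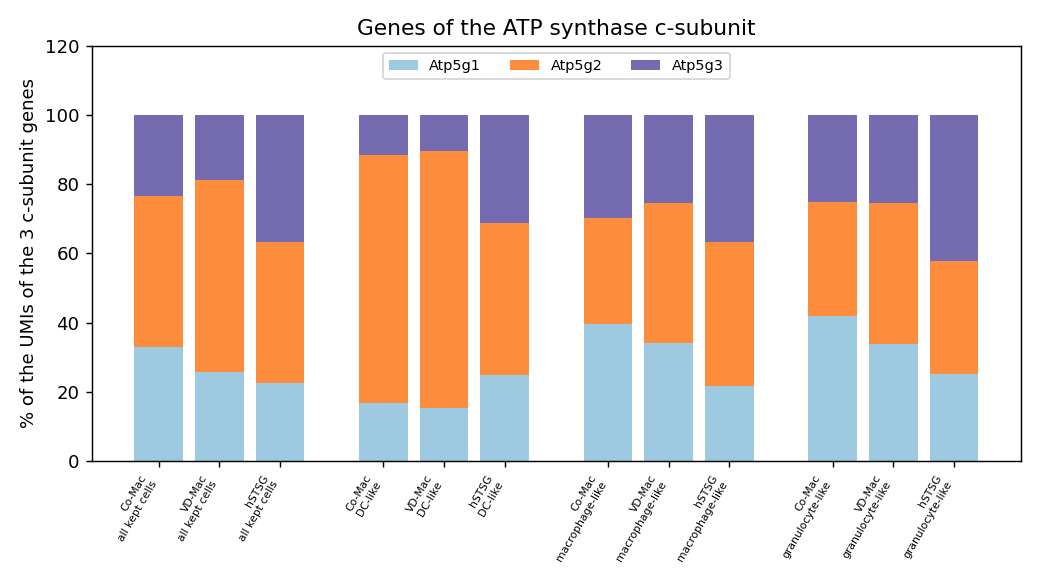
Stacked bars give the share of c-subunit UMIs from Atp5g1, Atp5g2 and Atp5g3 in percent, for all kept cells and for 3 classes in each library. The Atp5g2 share is larger in VD-Mac than in Co-Mac in every group drawn, although the classes hold different clusters in each culture.

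The graft library held less OXPHOS transcript per UMI than either culture, though tissue and handling differ from the cultures and cannot be told apart. Within hSTSG the member share was 1.71% in macrophage-like, 1.69% in DC-like, 1.52% in endothelial-like, 1.46% in T or NK cell-like and 1.23% in fibroblast-like cells. It was lowest in granulocyte-like cells, at 0.413%, where mt- genes took 0.809% and ribosomal proteins 2.34% of UMIs. Granulocyte-like cells of the cultures were not low in this way, at 2.68% and 2.98%. The granulocyte marker Csf3r was at 1450 CPM in the graft class, 31.8 in Co-Mac and 21.2 in VD-Mac, where cycling clusters with little of it lower the class values. The culture clusters with most Csf3r, Co-Mac 5 at 325 CPM and VD-Mac 4 at 133 CPM, had member shares of 2.77% and 2.71%.

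Macrophage-like cells of the graft were set beside those of Co-Mac. Members summed to 17098 CPM in the graft and 27029 in Co-Mac, a log2 ratio of -0.66, and the mt- sum gave the same -0.66. Cycling cells made up much of the Co-Mac side, and cell cycle genes had a median of -3.10 (1533 CPM in Co-Mac, 297 in the graft). The non-cycling Co-Mac cluster 2 had a member share of 2.77%, beside 1.71% in the graft class. By gene the median was -0.79 for members and -0.16 for all genes, with 65 of 74 members lower, where 43.5% of all genes were higher. By the smaller fold 55 members were lower, against 43.7% of genes, and 3 higher, against 32.4%. At 2-fold 26 were lower, against 18.9%, and 2 higher, against 16.8%. Those 2 were Ndufa1 and Cox7a1, the latter with the highest tested ratio of the members (log2 ratio 1.12). Cox7a1 was at 4.53 CPM in Co-Mac and entered the comparison through its graft level alone. The lowest member was Atp5g1, at 186 CPM in the graft and 690 in Co-Mac (log2 ratio -1.89). A few went the other way: Ndufa1, a small membrane subunit of complex I, was at 355 and 174 CPM (1.03) and Ndufa3 at 184 and 111 (0.73). Mitochondrial ribosome genes were lower as well (median -1.08), while glycolysis genes had a median of 0.12. Members outside the naming rule are given here after their values were seen.

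Isoforms used in particular tissues were scarce in culture. Cox7b2 and Cox8c had 0 UMIs in all 3 libraries, which at a limit of 3 UMIs allows up to 0.0226 CPM in Co-Mac, 0.0258 in VD-Mac and 0.132 in hSTSG, and Cox8b had 1 UMI in the graft and 0 in the cultures. Cox7a1, the heart and muscle partner of Cox7a2, was at 2.92 CPM in Co-Mac, 6.27 in VD-Mac and 6.76 in hSTSG. In macrophage-like cells it went from 4.53 CPM to 12.5 (log2 ratio 1.29), the 1 member past 2-fold there, where 3.84% of genes were. It entered that comparison through its VD-Mac level alone, being under 10 CPM in Co-Mac. Cox6b2, the testis form of Cox6b1, was at 5.11, 4.67 and 3.75 CPM, far under the 570, 595 and 417 CPM of Cox6b1. Cox6a2, the muscle form of Cox6a1, was at 1.65, 0.919 and 4.59 CPM, and 60 of its 104 graft UMIs came from 3 DC-like cells. Of the other low members, Atp5s was at 4.07, 4.94 and 3.31 CPM, and the second Atp5o identifier had 2 UMIs in Co-Mac and 1 in VD-Mac (log2 ratio interval -6.70 to 3.45), beside 281 and 301 CPM for the first.

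Ndufa4l2, the hypoxia-induced relative of Ndufa4, set the graft apart. It had 626 UMIs in hSTSG (27.6 CPM) and 0 in either culture. Most lay in fibroblast-like cells, with 502 UMIs (137 CPM) in 53 of 140 cells. In endothelial-like cells it had 68 UMIs (118 CPM) in 4 of 25 cells. Markers of these cell types were scarce in culture. Fibroblast markers summed to 3.79 CPM in Co-Mac, 0.197 in VD-Mac and 11786 in hSTSG, and endothelial markers to 11.5, 9.79 and 232. The graft and the cultures thus differ in the cell types that held most Ndufa4l2. Macrophage-like cells of the graft held 43 Ndufa4l2 UMIs (4.89 CPM) in 15 of 492 cells. Their median depth was 14335.5 UMIs against 25571.5 in fibroblast-like cells. Cox4i2, the lung form of Cox4i1, reached 57.3 CPM in endothelial-like cells, from 33 UMIs in 3 cells, and was at 0.573 CPM in Co-Mac, 0.0945 in VD-Mac and 2.25 in hSTSG as a whole. In fibroblast-like cells Ndufa4 itself stood at 268 CPM, about as high as in the whole graft library.

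Promoters were read to see what members share beyond their names. The RefSeq promoter table (build GRCm38.p6) gave 300 bases, 250 before and 50 after the start, for 67 of the 81 symbols. The other symbols, Sdhc and Atp5a1 among them, had no entry under that name. Motifs were searched on both strands. The 10-base site of the respiratory factor NRF1 was in the promoters of 5 member genes (7.46%), against 1.07% of 27025 genes and 0.971% of 32851 promoters. The same site with any base at the centre, which holds the first, was in 17 (25.4%, against 5.19% of genes and 4.60% of promoters). The YY1 letters AAGATGGC were in 10 (14.9%, against 3.19% and 2.75%), the ERR letters TCAAGGTCA in 2 (2.99%, against 0.466% and 0.423%) and the CRE letters TGACGTCA in 4 (5.97%, against 2.03% and 1.79%). The 3 vitamin D receptor half-site pairs, direct repeats with 3 bases between, were in 0 member promoters, and in 0.00609%, 0% and 0.00609% of all promoters. The ETS letters CCGGAAGT, the core site of GABPA, were in 5 (7.46%, against 4.31% and 3.89%): Atp5h, Cox8a, Ndufs3, Uqcr11 and Uqcrh. A match describes a sequence and does not show that a factor binds there.

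The promoters of the c-subunit genes are shown because these genes encode 1 protein yet diverged, and those of Uqcrh, Cox8a and Atp5h because the members were higher in VD-Mac in all 10 cluster pairs and hold the ETS letters, a choice made after both were seen. The other 5 members higher in every pair, Cox5a, Atp5d, Ndufb10, Ndufv2 and Ndufa3, lack the letters, and Ndufs3 and Uqcr11, which hold them, were lower in 2 pairs and 1 pair. All are on the minus strand of GRCm38.p6, at chr11:96075582-96075881, chr15:102670998-102671297, chr2:73911277-73911576, chr4:116075021-116075320, chr19:7217567-7217866 and chr11:115419870-115420169, printed 5′ to 3′ as the gene reads. Capitals mark matches to the motifs on either strand: the NRF1 site in Atp5g2, its form with any base at the centre in Atp5g3 and Atp5h, ERR letters in Atp5g3, and ETS letters in Uqcrh, Cox8a (2 matches) and Atp5h. No motif searched was found in the Atp5g1 window.
Atp5g1: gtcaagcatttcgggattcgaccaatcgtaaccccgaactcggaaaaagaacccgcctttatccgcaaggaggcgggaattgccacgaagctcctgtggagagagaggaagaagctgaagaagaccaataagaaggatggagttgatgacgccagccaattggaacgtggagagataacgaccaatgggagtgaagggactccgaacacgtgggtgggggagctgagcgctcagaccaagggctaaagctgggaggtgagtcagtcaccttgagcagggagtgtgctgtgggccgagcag
Atp5g2: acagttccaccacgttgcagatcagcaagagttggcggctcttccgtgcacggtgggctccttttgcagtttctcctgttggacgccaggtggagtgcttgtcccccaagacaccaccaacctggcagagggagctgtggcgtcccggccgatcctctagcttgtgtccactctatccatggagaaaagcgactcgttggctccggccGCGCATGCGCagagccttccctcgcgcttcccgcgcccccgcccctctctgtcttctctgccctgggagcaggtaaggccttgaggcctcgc
Atp5g3: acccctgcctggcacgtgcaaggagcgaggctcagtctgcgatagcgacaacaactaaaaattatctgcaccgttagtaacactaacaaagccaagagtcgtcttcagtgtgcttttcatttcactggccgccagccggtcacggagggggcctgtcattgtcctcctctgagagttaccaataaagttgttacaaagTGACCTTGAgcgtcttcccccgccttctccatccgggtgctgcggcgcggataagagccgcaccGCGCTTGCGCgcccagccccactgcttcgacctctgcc
Uqcrh: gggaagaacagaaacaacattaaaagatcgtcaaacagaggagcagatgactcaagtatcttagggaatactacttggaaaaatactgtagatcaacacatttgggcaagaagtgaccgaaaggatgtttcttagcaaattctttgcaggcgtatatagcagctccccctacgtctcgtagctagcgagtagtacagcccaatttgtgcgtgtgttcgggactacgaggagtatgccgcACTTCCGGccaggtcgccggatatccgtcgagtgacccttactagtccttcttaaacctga
Cox8a: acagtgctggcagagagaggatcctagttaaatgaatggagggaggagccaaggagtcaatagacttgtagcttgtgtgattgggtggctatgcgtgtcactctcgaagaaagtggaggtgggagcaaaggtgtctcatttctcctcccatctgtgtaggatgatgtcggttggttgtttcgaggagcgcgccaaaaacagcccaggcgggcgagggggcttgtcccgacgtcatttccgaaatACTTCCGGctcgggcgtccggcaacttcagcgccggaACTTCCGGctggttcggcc
Atp5h: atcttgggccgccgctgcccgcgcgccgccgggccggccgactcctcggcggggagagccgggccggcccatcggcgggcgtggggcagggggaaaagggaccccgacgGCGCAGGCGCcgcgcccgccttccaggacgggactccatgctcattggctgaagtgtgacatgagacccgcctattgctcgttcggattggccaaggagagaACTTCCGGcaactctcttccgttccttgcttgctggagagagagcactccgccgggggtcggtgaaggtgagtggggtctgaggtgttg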

How the data were processed

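Droplet 3′ single-cell RNA libraries were read for Co-Mac, VD-Mac and hSTSG, with 1 library in each group. The deposited matrices hold UMI counts, made by the authors with Cell Ranger (3.1.0 in the matrix header) and handled in Seurat 3.1.1. The labels name build mm9 and the study's methods a human genome, while the feature table lists mouse genes; coordinates follow GRCm38. The files hold 31053 genes, and hashtag rows were left out: 10 in each culture, with 0 counts, and 20 in hSTSG, 14 of them with counts, which no label maps to mice. Barcodes with at least 300 genes, under 100000 gene UMIs and under 10% mt- UMIs were kept: 7257 of 7866 in Co-Mac, 8825 of 9794 in VD-Mac and 2144 of 2644 in hSTSG. Doublets were not removed. A barcode present in 2 libraries was kept in both.

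UMIs were summed over kept cells and scaled to CPM, with exact Poisson 95% intervals for levels, exact binomial intervals for c-subunit shares and exact conditional binomial intervals for ratios. Log2 ratios have 1 CPM added to each side and their intervals do not, so for genes of a few CPM the ratio can lie outside its interval (Cyp24a1 8.29, interval 12.87 to 20.65; Cox7a1 0.89, interval 0.92 to 1.28). A gene was tested when it reached 10 CPM in the higher group. Each library was clustered by itself with 2000 variable genes without members, mt- genes or listed genes, 15 principal components, 15 neighbours and Leiden resolution 0.5. Clusters were named from marker lists; the naming rule and the pairing of clusters were settled after the clusters were seen, and clusters that met no rule were left unnamed. Members and gene lists were chosen with earlier results of these data known. Genes were named by rule: in each complex the member with most UMIs and those with the highest and lowest ratio, members past 1.5-fold, tissue isoforms beside their common forms, Sdh genes, mt- genes, and from each list the most abundant gene and those at both ends of the ratio. Any other member was named after its values were seen. A withheld item is not reported here. Alternatives covered the cell filter, doublets, scaling, cell weights, depth, class make-up, low values, the added CPM and clustering. Tools were Python 3.11.15, numpy 2.4.6, scipy 1.17.1, pandas 2.3.3, igraph 0.11.9, leidenalg 0.10.2 and matplotlib 3.10.9, and the scripts were tested on simulated data.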

Additional observations from a re-analysis of the deposited data

Results flagged for a closer look

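VD3 went with opposite directions in macrophage-like and DC-like cells for 10 members whose counting intervals lay on different sides of 0 in the classes. Among all genes tested in both classes 16.7% did so, so the members do not stand out. The 9 listed also kept their directions in 3 of the 10 matched cluster pairs, Co-Mac clusters 2, 1 and 0 with VD-Mac clusters 3, 0 and 1, which reuse the same cells and are no second test, and Atp5g1 did not. Direction in a pair was the sign alone, and some values lay near 0, such as Cox6a1 at 0.010 in clusters 2 and 3. The cycling pair was not used, although Co-Mac cluster 3 held 56.4% of the macrophage-like UMIs of Co-Mac. These criteria were chosen after the data were seen. Each class has 1 library in each culture, and the difference between classes was not tested.

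Of these 9, 4 were lower in VD-Mac in macrophage-like cells and higher in DC-like cells. Cox7a2, the common form of a complex IV subunit, had a log2 ratio of -0.27 in macrophage-like cells and 0.15 in DC-like cells. Sdhc, a membrane anchor of complex II, was at -0.26 and 0.12. Ndufa6, an accessory subunit of complex I, was at -0.18 and 0.13. Ndufb6, an accessory subunit of complex I, was at -0.11 and 0.11. The other 5 went the opposite way. Ndufb7, an accessory subunit of complex I, had a log2 ratio of 0.38 in macrophage-like cells and -0.13 in DC-like cells. Uqcrc2, a core subunit of complex III, was at 0.30 and -0.17. Ndufb4, an accessory subunit of complex I, was at 0.14 and -0.13. Cox6a1, a subunit of complex IV, was at 0.074 and -0.080. Uqcr10, a small subunit of complex III, was at 0.057 and -0.18.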

How the results depend on the processing

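Over the alternatives, the member median stayed between 0.04 and 0.15 and above the median of all genes. The macrophage-like median ranged from 0.0026 to 0.21. Over summed cells no tested member passed 2-fold under any alternative run, and 8 to 19 passed the smaller fold (25% higher or 20% lower). The signs of the complex II sum and of the mt- sums did change, and the causes were not tested. The 5% mitochondrial limit kept 3125 of 7257 Co-Mac and 3619 of 8825 VD-Mac cells. No paired analysis was possible because each group has 1 library. The macrophage-like median was not run with no mitochondrial limit or with 300 UMIs, since clusters exist for kept cells alone. The member median counted as unmoved within 0.022, the median half-width of the members' intervals. The macrophage-like median was judged by the median half-width of the members' intervals within that class. Of 649 values over 59 named genes, 257 stayed within their interval, 390 moved beyond it in size or sign, and 2 past the smaller fold changed sign, as did 28 smaller ones, in 17 genes together. The values that moved follow, as log2 ratios of VD-Mac over Co-Mac, with all for the sum of every complex, or as percent of UMIs.

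With median-of-ratios size factors, the member median was 0.11, the macrophage-like median was 0.21, the nuclear sums were all 0.16, I 0.15, II -0.093, III 0.23, IV 0.21 and V 0.11 and the mt- sums were all 0.19, I 0.076, III 0.21, IV 0.19 and V 0.26. Without mt- and ribosomal protein UMIs in the total, the member median was 0.15, the nuclear sums were all 0.20, I 0.20, II -0.052, III 0.27, IV 0.25 and V 0.15 and the mt- sums were all 0.23, I 0.12, III 0.25, IV 0.24 and V 0.30. With each cell counted equally, the member median was 0.13, the nuclear sums were all 0.18, I 0.20, II 0.014, III 0.24, IV 0.22 and V 0.13, the mt- sums were all -0.011, I -0.10, III 0.0069, IV -0.019 and V 0.064, the member share was Co-Mac 2.52%, VD-Mac 2.86% and hSTSG 1.19% and Stmn1 turned to 0.16. With cells thinned to 2000 UMIs, the member median was 0.11, 8 members passed the smaller fold, the nuclear sums were all 0.14, I 0.15, II -0.046, III 0.20, IV 0.18 and V 0.077, the mt- sums were all 0.075, I -0.013, III 0.099, IV 0.067 and V 0.14 and the member share was Co-Mac 2.48%, VD-Mac 2.73% and hSTSG 1.26%. With VD-Mac classes at their Co-Mac shares, the member median was 0.11, the nuclear sums were all 0.16, I 0.17, II -0.0021, III 0.24, IV 0.19 and V 0.11 and the mt- sums were all 0.18, I 0.13, III 0.22, IV 0.16 and V 0.25. With a mitochondrial limit of 5%, the macrophage-like median was 0.0026, the nuclear sums were all 0.13, I 0.13, II -0.13, III 0.16 and IV 0.19, the mt- sums were all -0.19, I -0.40, III -0.16, IV -0.16 and V -0.12, the member share was Co-Mac 2.52%, VD-Mac 2.75% and hSTSG 1.51% and mt-Atp8 turned to -0.016. Without the deepest cells, as many as the expected doublets, the nuclear sums were all 0.10, III 0.16, IV 0.15 and V 0.047, the mt- sums were all 0.11, I 0.0050, III 0.13, IV 0.11 and V 0.17 and the member share was Co-Mac 2.48%, VD-Mac 2.66% and hSTSG 1.48%. Without mt- UMIs in the total, the nuclear sums were all 0.12, I 0.11, III 0.19, IV 0.17 and V 0.066, the mt- sums were all 0.15, I 0.031, III 0.17, IV 0.15 and V 0.21 and the member share was Co-Mac 2.64%, VD-Mac 2.87% and hSTSG 1.58%. Without cells under 1% mt- UMIs, a choice made after seeing the data, the nuclear sums were all 0.10, I 0.090, III 0.17, IV 0.15 and V 0.048, the mt- sums were all 0.16, I 0.041, III 0.18, IV 0.16 and V 0.22 and the member share was Co-Mac 2.47%, VD-Mac 2.65% and hSTSG 1.58%. With all deposited barcodes, the nuclear sums were IV 0.16, the mt- sums were all 0.19, I 0.090, III 0.20, IV 0.19 and V 0.25 and the member share was Co-Mac 2.48%, VD-Mac 2.67% and hSTSG 1.46%. With no mitochondrial limit, the mt- sums were all 0.18, I 0.080, III 0.20, IV 0.18 and V 0.24 and the member share was Co-Mac 2.48%, VD-Mac 2.68% and hSTSG 1.5007%. With a minimum of 300 UMIs in place of 300 genes, the member share was hSTSG 1.49%. At clustering resolution 0.8, the macrophage-like median was 0.17. With 30 principal components, the macrophage-like median was 0.20.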

Other observations

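Vdr and Cyp24a1 differed between cell classes of the VD3 culture. Vdr stood at 168 CPM in macrophage-like, 141 in DC-like and 98.8 in granulocyte-like cells of VD-Mac, and at 29.2, 94.5 and 13.1 CPM in those of Co-Mac. Cyp24a1 stood at 498, 33.1 and 686 CPM in these VD-Mac classes. These classes hold different clusters in each culture.

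Trem2, a lipid receptor of macrophages, stood at 267 CPM in macrophage-like cells of Co-Mac, 793 in those of VD-Mac and 551 in those of hSTSG, beside member shares of 2.70%, 3.08% and 1.71%.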
